A study of Mus musculus with 6 samples.

Results

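The genes of mouse chromosome 12 were followed along the chromosome in 6 cultured mammary cell lines. The members were chosen by position and by abundance: every gene that the deposited table places on chromosome 12 and whose counts summed over the 6 lines reached 300. The chromosome itself, and EIC_NT as the line to set against the others, were picked with their difference in these data known. Of 909 chromosome 12 genes in the table, 414 were members, out of 11587 genes with that many counts on all chromosomes. The members were 384 protein-coding genes and 30 other transcripts, of which 19 were pseudogenes. Those just inside the limit were F730043M19Rik, Gm6682 and Gm28875 with 303, 304 and 309 counts, and those just outside were Gm49326, A530016L24Rik and AC125351.1 with 299, 296 and 295.

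The lines carry the names EIC_4026, EIC_NT and EIC_7559 (genotype EIC/WT) and 16IC_1984, 16IC_4982 and 16IC_7391 (genotype 16IC/WT). All are of mammary origin, from female FVB/N mice, and each was kept on doxycycline (10 ug/mL) in DMEM with serum, EGF, insulin and an extract of pituitary, so no line off doxycycline serves as a control. The labels do not explain the genotypes; in the mouse models of these names the drug induces ErbB2, intact in EIC and lacking an exon in 16IC. The labels do not say what NT stands for, nor whether the lines of a group come from separate animals, and p-values measure only the spread between these 6 samples. EIC_NT is 1 line and was singled out with earlier results of these data known, and has no replicate, so its differences are given as descriptions with no test.

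Library totals ran from 15621563 to 17468498 counts. The keratin genes Krt8 and Krt18, markers of simple epithelium, had 579 to 2646 and 562 to 1994 CPM (read counts scaled to library size), while the epithelial gene Epcam had 0.455 to 3.78 CPM in EIC, so that this defining marker was nearly absent there, and 51.0 to 1342 CPM in 16IC. Cdh1, another epithelial gene, was not absent in EIC, with 56.3 to 307 CPM there and 270 to 1051 CPM in 16IC. The basal marker Krt5, the leukocyte gene Ptprc and the endothelial genes Pecam1 and Cdh5 stayed at or below 0.305 CPM in every line. Krt14 stayed at or below 13.0 CPM, and the macrophage-associated gene Cd68 had 7.39 to 47.5 CPM. EIC_NT stood apart in Krt19, Trp63 and the milk protein gene Csn2, with 197, 11.5 and 78.7 CPM against at most 10.1, 0.518 and 4.34 CPM elsewhere. The other mammary markers, Elf5 and Wap, had 0 CPM in EIC_NT. Elf5 had 41.4 and 62.9 CPM in 16IC_1984 and 16IC_4982 and at most 2.78 CPM in the other lines. EIC_NT had the highest sum of the 3 mesenchymal markers, Vim, Sparc and Fn1, at 8771 CPM against 137 to 5028 CPM elsewhere, and the lowest share of mitochondrial counts, 0.926% against 1.38 to 3.39%. The part of these in the results on EIC_NT was not tested.

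Mouse chromosome 12 is an autosome whose genes serve unrelated functions. They include the hypoxia regulator Hif1a, the kinase gene Akt1, the immediate-early gene Fos, the Notch ligand gene Jag2, the imprinted Dlk1 and Meg3 domain and the immunoglobulin heavy chain locus. Neighbouring genes on a chromosome share a stretch of DNA but usually differ in their own promoters and in the signals they answer. The files hold RNA counts and no measurement of DNA. In such bulk samples fewer cells with a transcript and less of it per cell cannot be told apart.

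The starts of 4 members are printed because they stand for the kinds of difference described here. Rab10, a small GTPase gene of vesicle transport (chr12:3309920-3310219, minus strand), and Actn1, which encodes an actin cross-linking protein (chr12:80260314-80260613, minus strand), were strongly counted in every line and lower in EIC_NT. Evl, a regulator of actin growth (chr12:108554470-108554769, plus strand), and Ttc9, which encodes a tetratricopeptide repeat protein (chr12:81630999-81631298, plus strand), had no count in EIC_NT. The sequences are RefSeq's on GRCm38.p6, 5′ to 3′ on the gene's strand, from 250 bases before to 50 after the start, with every CG dinucleotide in capitals.
Rab10: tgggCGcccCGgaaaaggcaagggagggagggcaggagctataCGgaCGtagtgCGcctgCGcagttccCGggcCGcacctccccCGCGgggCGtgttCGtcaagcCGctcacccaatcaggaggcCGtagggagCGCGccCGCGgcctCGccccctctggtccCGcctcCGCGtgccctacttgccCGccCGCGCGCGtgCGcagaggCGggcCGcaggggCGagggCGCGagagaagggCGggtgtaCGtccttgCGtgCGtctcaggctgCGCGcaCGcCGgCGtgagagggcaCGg
Actn1: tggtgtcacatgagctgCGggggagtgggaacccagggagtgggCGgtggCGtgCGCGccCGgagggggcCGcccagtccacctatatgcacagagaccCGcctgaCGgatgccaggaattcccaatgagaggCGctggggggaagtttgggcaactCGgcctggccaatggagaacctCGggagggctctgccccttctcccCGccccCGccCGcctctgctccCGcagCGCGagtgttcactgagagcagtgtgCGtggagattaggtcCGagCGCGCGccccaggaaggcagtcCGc
Evl: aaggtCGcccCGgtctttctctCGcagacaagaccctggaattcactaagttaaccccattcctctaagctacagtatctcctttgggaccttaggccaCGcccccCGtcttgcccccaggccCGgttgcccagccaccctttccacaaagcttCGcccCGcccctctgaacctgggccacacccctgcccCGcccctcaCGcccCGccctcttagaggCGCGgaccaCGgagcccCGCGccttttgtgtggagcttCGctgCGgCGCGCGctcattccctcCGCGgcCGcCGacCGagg
Ttc9: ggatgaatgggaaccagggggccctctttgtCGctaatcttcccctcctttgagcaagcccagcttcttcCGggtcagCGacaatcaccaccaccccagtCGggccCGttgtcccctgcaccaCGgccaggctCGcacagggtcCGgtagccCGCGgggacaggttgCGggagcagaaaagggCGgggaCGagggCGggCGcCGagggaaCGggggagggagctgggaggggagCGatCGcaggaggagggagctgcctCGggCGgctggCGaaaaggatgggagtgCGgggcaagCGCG
Rab10 and Actn1 hold 43 and 24 CG dinucleotides and Evl and Ttc9 hold 26 and 25. These 4 were picked after their values were seen, so their CG counts do not compare genes with and without counts in EIC_NT.

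Chromosome 12 as a whole was lower in EIC_NT than in the other lines. Its members took 1.76% of the counts in EIC_NT, 2.37 and 2.44% in EIC_4026 and EIC_7559, and 3.02, 2.86 and 2.37% in 16IC_1984, 16IC_4982 and 16IC_7391. EIC_NT was below each of the others by this measure, and the first 2 16IC lines were the highest. Per gene, log2 CPM in EIC_NT minus the mean of the other 5 lines had a median of -0.57 over the members (quartiles -1.07 and -0.14), a level 0.673 times that of the others. The same median was 0.08 over the 11173 genes of all other chromosomes (quartiles -0.33 and 0.45). The middle of the chromosome 12 distribution thus lay below the lower quartile of the rest of the genome.

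The lower level was spread over most members. EIC_NT lay below the mean of the other lines in 340 of 414 members (82.1%), where 45.9% of all genes with at least 300 counts did. It was the lowest of the 6 lines in 228 members (55.1%, against 19.1% of all such genes) and the highest in 18 (4.35%, against 23.2%). At least 2-fold below the mean of the others and below each of them were 102 members (24.6%, against 8.23%), and 8 were above by the same rule (1.93%, against 6.66%). Gpx2, counted among the 228 and the 102, had no count in either EIC_NT or EIC_7559 and is a tie. Against single lines, the median difference of EIC_NT was -0.44 from EIC_4026, -0.54 from EIC_7559, -0.74 from 16IC_1984, -0.69 from 16IC_4982 and -0.53 from 16IC_7391.

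**Figure D1:**
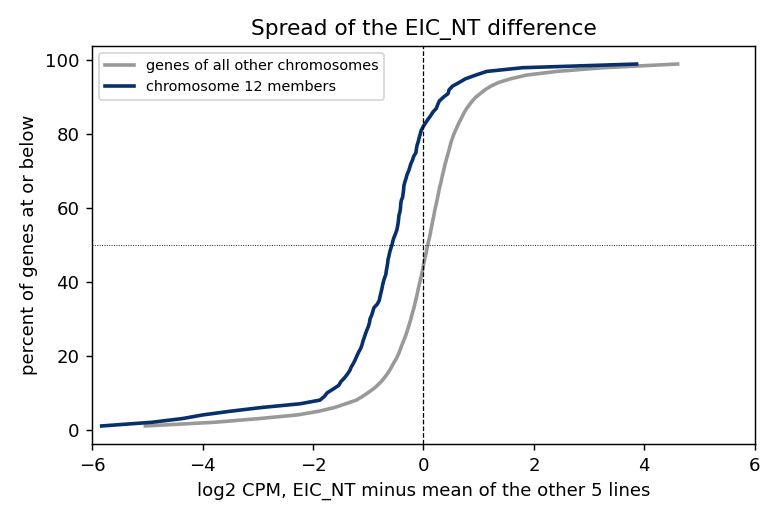
Percent of genes at or below each value of log2 CPM in EIC_NT minus the mean of the other 5 lines, from percentile 1 to 99, for the 414 chromosome 12 members (dark) and the 11173 genes of all other chromosomes (grey). The chromosome 12 curve lies to the left of the other through most of its length, with medians of -0.57 and 0.08.

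The other lines were closer to one another. Against the mean of its own 5 comparison lines, the member median was -0.04 in EIC_4026, 0.03 in EIC_7559 and -0.02 in 16IC_7391. It was 0.32 in 16IC_1984 and 0.29 in 16IC_4982, which over all genes stood at 0.01 and 0.02. A low line raises the value of every other line by this measure, since it enters their comparison means. Taken against EIC_4026 and EIC_7559 alone, the member medians were 0.25 in 16IC_1984, 0.23 in 16IC_4982 and -0.02 in 16IC_7391. On chromosome 12, then, 3 levels could be described: EIC_NT lowest, EIC_4026, EIC_7559 and 16IC_7391 between, and the pair 16IC_1984 and 16IC_4982 highest. The summed mesenchymal markers fell into the same 3 sets of lines in the opposite order. The sums were 8771 CPM in EIC_NT, 4257, 5028 and 3632 CPM in EIC_4026, EIC_7559 and 16IC_7391, and 137 and 221 CPM in 16IC_1984 and 16IC_4982. Sparc alone had 31.0 CPM in 16IC_7391, far below EIC_4026 and EIC_7559 (282 and 400) and nearer to 16IC_1984 and 16IC_4982 (1.86 and 7.39). The summed luminal epithelial markers (Epcam, Krt8, Krt18, Krt19 and Cdh1) did not give these sets. That sum was lowest in 16IC_7391, at 1462 CPM, with 2510 CPM in EIC_NT and 3103 and 3045.5 CPM in EIC_4026 and EIC_7559. It was 6780 and 6417 CPM in 16IC_1984 and 16IC_4982. 16IC_7391 also stood apart from its group in Epcam, with 51.0 CPM against 1157 and 1342 CPM. The part of these markers in the levels of chromosome 12 was not tested.

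The low level of EIC_NT ran the length of the chromosome. With windows of 10 Mb counted from the chromosome's start, the median difference of EIC_NT was -0.72, -0.36, -0.72 and -0.63 in windows 1 to 4 (26, 23, 24 and 27 members). It was -0.74, -0.64, -0.46 and -0.60 in windows 5 to 8 (10, 37, 27 and 50 members). It was -0.62, -0.36, -0.48 and -0.53 in windows 9 to 12 (71, 15, 49 and 55 members). All 12 values were negative, and in all 12 windows EIC_NT had the lowest value of the 6 lines. The medians nearest to 0 were those of windows 2 and 10. By the share of members below the mean of the other lines, the lowest were windows 2, 5 and 10, with 60.9, 70.0 and 73.3%. The longest unbroken run of neighbouring members on that side held 48 genes, from 2310015A10Rik to Nek9 (80120546 to 85339362 on mm10). With the windows shifted by 5 Mb, the 13 medians ran from -0.91 to -0.35.

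**Figure D2:**
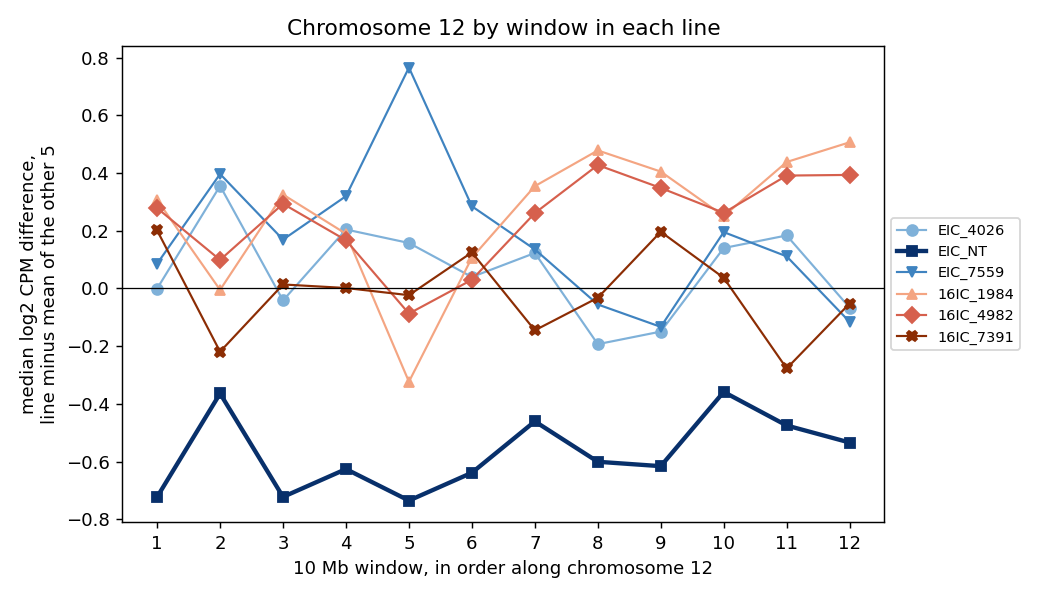
Median over members of log2 CPM in a line minus the mean of the other 5 lines (vertical axis) in the 12 consecutive 10 Mb windows of chromosome 12 (horizontal axis), 1 curve per line. EIC_NT is the lowest in each window, between -0.74 and -0.36, while the other 5 lines cross one another.

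Few other stretches of the genome were as low in EIC_NT. Of 225 windows of 10 Mb on other autosomes with at least 10 such genes, 2 had a median at or below -0.36, the highest chromosome 12 value, and the middle 50% of all 237 windows ran from -0.05 to 0.19. By whole chromosome, EIC_NT had -0.57 on chromosome 12, -0.11 on chromosome 5, the next lowest autosome, and 0.79 on chromosome 14, the highest. Chromosomes 12 and 14 thus marked opposite ends in this line, as a description without a test.

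In the other lines the windows did not move together to the same extent. Chromosome 12 was still extreme in 16IC_1984 and 16IC_4982, in the opposite direction. It was their highest autosome, at 0.32 and 0.29, and 8 of its 12 windows lay above the last decile of all 237 windows (0.19 and 0.18). The low level of EIC_NT raises these values. 16IC_1984 was 0.48, 0.41, 0.44 and 0.51 in windows 8, 9, 11 and 12, and 16IC_4982 was 0.43, 0.35, 0.39 and 0.39 there. In window 2 they stood at 0.00 and 0.10, and in window 5 at -0.32 and -0.09. 16IC_1984 was thus highest in window 12 and 16IC_4982 in window 8. EIC_7559 reached 0.77 in window 5, which holds 10 members, and 16IC_7391 ranged from -0.28 in window 11 to 0.20 in window 1.

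**Figure D3:**
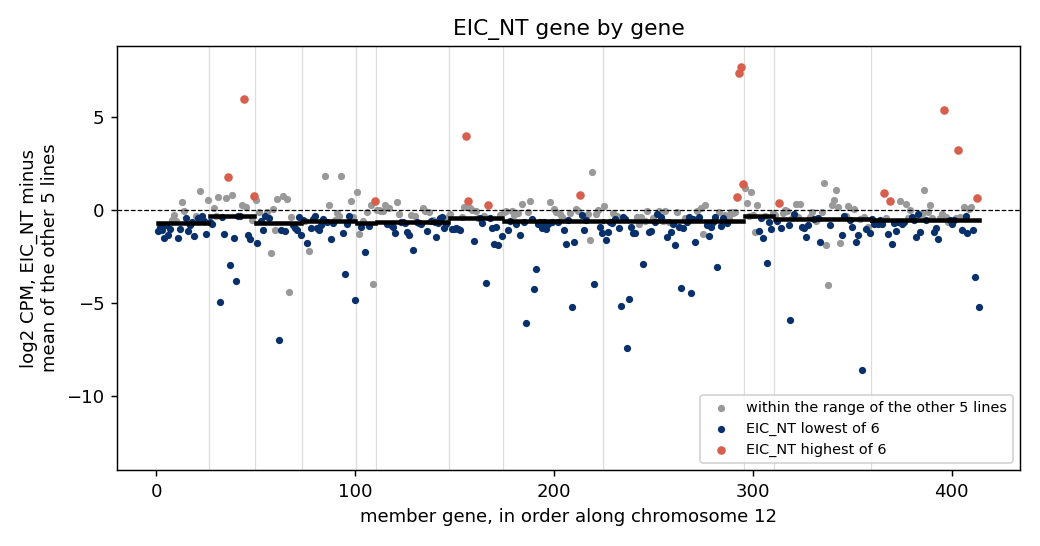
Log2 CPM in EIC_NT minus the mean of the other 5 lines (vertical axis) for each of the 414 members in chromosome order (horizontal axis), with a black bar at the median of each 10 Mb window and grey lines between windows. Blue points are the 228 members where EIC_NT is the lowest line (with Gpx2 a tie at 0) and red points the 18 where it is the highest, of which windows 9 and 12 hold 4 and 5 and windows 1, 3, 4, 6 and 10 hold none.

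The 3 most counted members of each window, 36 genes, followed the same pattern. Within a window they were taken by count alone. Their chromosome was picked with its difference known, so these genes give no separate support. EIC_NT was below the mean of the others in 32 of them, the lowest line in 21 and the highest in 2, with a median of -0.60. Rab10 had 301, 161 and 405 CPM in EIC_4026, EIC_NT and EIC_7559 and 311, 319 and 212 CPM in 16IC_1984, 16IC_4982 and 16IC_7391. Lamb1, which encodes the laminin beta-1 chain of basement membranes, had 451, 217 and 559.8 CPM in EIC_4026, EIC_NT and EIC_7559 and 439.9, 560.1 and 226 CPM in 16IC_1984, 16IC_4982 and 16IC_7391. EIC_NT was the lowest line for both genes, at 52.0 and 48.4% of the mean CPM of the others, although for Lamb1 16IC_7391 came close.

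Some of the most counted genes of windows 9 and 12 were lowest in EIC_NT and high in all 16IC lines. Actn1 had 511, 286 and 451 CPM in EIC_4026, EIC_NT and EIC_7559 and 1073, 793 and 610.4 CPM in 16IC_1984, 16IC_4982 and 16IC_7391. Srsf5, a splicing factor gene, had 249, 157 and 203 CPM in EIC_4026, EIC_NT and EIC_7559 and 380.0, 393 and 398 CPM in 16IC_1984, 16IC_4982 and 16IC_7391. Dync1h1, the heavy chain of the dynein motor, had 516, 469 and 625 CPM in EIC_4026, EIC_NT and EIC_7559 and 1096, 1012 and 972 CPM in 16IC_1984, 16IC_4982 and 16IC_7391. For each of the 3 the 16IC lines lay above every EIC line and EIC_NT was the lowest of all, at 41.6, 48.5 and 55.6% of the mean of the others. The chaperone gene Hsp90aa1 was a partial exception, with 392 CPM in EIC_NT and 370.3 CPM in 16IC_7391, below it.

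Some members were at or near 0 in EIC_NT alone, far beyond the typical shift. Evl (108554720 to 108688516 on mm10) had no count in EIC_NT and 13.2 to 38.8 CPM in the other lines. Against a floor of 3 counts in that library (0.180 CPM), it was at least 144-fold lower than their mean. Ttc9 (81631249 to 81667557) also had no count there against 1.29 to 23.3 CPM, at least 80.0-fold lower than the mean. For Ttc9 16IC_7391 was low too, while for Evl the other 5 lines were all well counted. Mboat2, a phospholipid acyltransferase gene, had 3 counts in EIC_NT (0.180 CPM) and 9.50 to 118 CPM in the others. Etv1, an ETS-family transcription factor gene (38779380 to 38870484), had 1.5 CPM in EIC_NT, 55.9 and 113 in the other EIC lines and 21.2, 30.9 and 42.6 in the 16IC lines. Fam49a had 2 counts in EIC_NT and 2.26 to 12.03 CPM elsewhere. Rtn1, a reticulon gene named here after its values were seen, had no count in EIC_NT and 2.84 to 6.34 CPM in the others.

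Other members with the lowest values in EIC_NT were low in several lines. Gpx2, a glutathione peroxidase gene, had 0 CPM in EIC_NT, 0.114 and 0 in the other EIC lines and 101, 68.9 and 0.841 in the 16IC lines. Tc2n had 0 CPM in EIC_NT, 0.0569 and 0.620 in the other EIC lines and 38.5, 143 and 1.42 in the 16IC lines. These 2 genes were high in 16IC_1984 and 16IC_4982 and low elsewhere, so that EIC_NT did not stand apart from its own group. Smoc1, which encodes a secreted matrix protein, had 0.240 CPM in EIC_NT, 0.569 and 22.0 in the other EIC lines and 6.31, 6.65 and 247 in the 16IC lines. Map3k9, a mixed-lineage kinase gene, had 0.180 CPM in EIC_NT, 5.35 and 3.91 in the other EIC lines and 34.2, 31.7 and 0.518 in the 16IC lines. Macc1, a regulator of the receptor gene Met, had 0.6 CPM in EIC_NT, 11.4 and 3.97 in the other EIC lines and 91.3, 63.2 and 34.2 in the 16IC lines, and here EIC_NT was the lowest line of either group. Ltbp2 and Pgf, also among the 12 lowest, are described with the group comparison. In all, 8 members had no count in EIC_NT, against 1 to 4 in each other line.

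Against the shift, 18 members were highest in EIC_NT. Jag2, which encodes a ligand of Notch receptors (112907819 to 112929776), had 1.25, 111 and 4.09 CPM in EIC_4026, EIC_NT and EIC_7559 and 1.98, 3.05 and 4.59 CPM in 16IC_1984, 16IC_4982 and 16IC_7391. Kcnf1, a potassium channel subunit gene (17172100 to 17176888), had 3.13, 85.7 and 14.9 CPM in EIC_4026, EIC_NT and EIC_7559 and 0, 0.855 and 2.01 CPM in 16IC_1984, 16IC_4982 and 16IC_7391. Crip1, which encodes a small LIM-domain protein, had 27.4, 89.5 and 20.5 CPM in EIC_4026, EIC_NT and EIC_7559 and 9.67, 9.22 and 1.75 CPM in 16IC_1984, 16IC_4982 and 16IC_7391. For these 3 genes EIC_NT stood clear of the other 5 lines. Mdga2, a neural adhesion gene, had 31.4 CPM in EIC_NT, 6.71 and 9.99 in the other EIC lines and 0.180, 0.122 and 11.1 in the 16IC lines. Fam84a had 58.4 CPM in EIC_NT, 5.18 and 13.5 in the other EIC lines and 22.2, 51.9 and 18.6 in the 16IC lines, close to 16IC_4982. Snw1, a splicing and transcription cofactor gene, had 75.5 CPM against 43.1 to 50.4 CPM, and Adck1, a mitochondrial kinase-like gene, 29.7 CPM against 8.56 to 15.1 CPM.

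Between Snw1 and Adck1 lay the members with the largest differences in favour of EIC_NT, named after their values were seen. The predicted genes Gm2016 (87874072 to 87877859) and Gm5662 (88270640 to 88274500) had 96.5 and 104 CPM in EIC_NT, 5.95 and 4.59 CPM in 16IC_7391 and under 1 CPM in the other lines. Their profiles were nearly the same, and whether reads were shared among copies is not known, so both values are uncertain. Snw1, Gm2016, Gm5662 and Adck1 are 4 consecutive members of window 9. Mdga2 and Rpl17-ps3, in window 7, were the other neighbouring members that were both highest in EIC_NT. Of the 18 members highest in EIC_NT, 7 were pseudogenes, among them Rpl17-ps3, Rps19-ps6, Mpc1-ps and Bnip3l-ps, with differences of 0.45, 0.45, 0.87 and 0.72. The 19 member pseudogenes had a median of 0.45 in EIC_NT, and EIC_NT was the lowest line in 3 of them. Reads of a processed pseudogene can come from its parent gene on another chromosome, and these values are uncertain for that reason.

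The shift was seen at every level of abundance. Split after their values were seen into 3 equal groups by the mean of the authors' FPKM (a level scaled for library size and gene length), the members had EIC_NT medians of -0.76 in the low, -0.57 in the middle and -0.42 in the high group. Below the mean of the others were 118, 111 and 111 of 138 genes. The interquartile range narrowed from 1.10 in the low group to 0.69 in the high group, where members had 9.56 to 231 FPKM. The median was -0.60 for 226 members on the plus and -0.54 for 188 on the minus strand, with 85.8 and 77.7% below the mean of the others. Protein-coding members stood at -0.59 and the 30 others at 0.00, of which 15 were below the mean of the other lines.

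Members with many and with few CG dinucleotides at their start had similar medians in EIC_NT. RefSeq promoters on GRCm38.p6 were matched by symbol to 337 members. The motif searched was CG, which reads the same on both strands and occurs at least once in 94.6% of all promoters in the table. The split at 15 was set after the values were seen. At least 15 CG dinucleotides in the 300 bases were held by 267 members (79.2%), against 34.6% of all 32851 promoters in the table. The EIC_NT median was -0.56 in these and -0.63 in the 70 members with fewer, and 85.8 and 84.3% were below the mean of the others. The members were chosen for their counts, and all promoters in the table were not, so the 2 shares are over different kinds of gene.

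By function, the shift crossed the lists drawn up for chromosome 12. Among 24 transcription regulators EIC_NT was the lowest line in 11 and the highest in none (median -0.71). Hif1a had 75.2 CPM in EIC_NT, 128 and 209 in the other EIC lines and 93.9, 105 and 88.1 in the 16IC lines, and the nucleosome remodelling gene Baz1a had 29.9 CPM in EIC_NT, 61.4 and 42.2 in the other EIC lines and 111, 101 and 53.5 in the 16IC lines. The dimerization partner gene Max was an exception, with 73.3 CPM against 64.4 to 88.2 CPM. Among 10 matrix and adhesion genes EIC_NT was the lowest in 7, with a median of -1.20. The heparan sulfate proteoglycan gene Sdc1 was above the mean there, with 349.6 CPM in EIC_NT, 94.8 and 168 in the other EIC lines and 494, 677 and 30.9 in the 16IC lines.

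Lists of genes with general cell functions also had medians below 0. The lists were drawn broadly: Erh is on the proteasome and chaperone list, and Brf1 on that of DNA replication and repair. For 10 proteasome and chaperone genes the median was -0.24, with EIC_NT lowest in 2, and the proteasome genes Psma3 and Psma6 stood at -0.07 and 0.10. For 9 ribosome, translation and secretion genes it was -0.50, with EIC_NT lowest in 5, among them the initiation factor gene Eif5 at -0.76 and the coat protein gene Sec23a at -0.72. For 16 DNA replication and repair genes it was -0.55, with EIC_NT lowest in 7. Of these the ribonuclease gene Dicer1 stood at -0.82 and the nucleotide reductase gene Rrm2 at 0.59. For Rrm2, EIC_NT had 106 CPM, within the range of the other lines, which ran from 15.9 CPM in 16IC_7391 to 126 CPM in EIC_4026. For 15 metabolic genes it was -0.42, with EIC_NT lowest in 8. Odc1, the first enzyme of polyamine synthesis, had 67.3 CPM in EIC_NT, 286 and 588 in the other EIC lines and 147, 119.7 and 101 in the 16IC lines. For 20 growth and hypoxia signalling genes the median was -0.44, with EIC_NT lowest in 10 and highest in 1, Jag2. Over all genes with at least 300 counts the median was 0.06, and EIC_NT was the lowest line in 19.1%. By that count the proteasome and chaperone list, with 2 of 10, stood near the background.

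Small families had few members. The acyl-CoA thioesterase genes Acot1, Acot2 and Acot6 stood at -1.13, -1.20 and -0.45. These are near copies of one another, and their counts are uncertain. Of the 5 listed genes in or beside the imprinted domain that the table places on chromosome 12, 2 were members, the flanking genes Wdr25 and Wars, at -1.24 and -0.96. The clustered protease inhibitor genes Serpina3h and Serpina3n, also near copies, varied widely between lines, with 0.240 CPM in EIC_NT, 14.9 and 95.3 in the other EIC lines and 0, 0.244 and 109.8 in the 16IC lines for Serpina3n. Of the interferon-induced pair, Ifi27 stood at -0.12 and Ifi27l2a at 1.46. For Ifi27l2a, EIC_NT had 14.5 CPM, between the other EIC lines (19.5 and 10.2), with 1.08, 0.610 and 26.6 CPM in 16IC_1984, 16IC_4982 and 16IC_7391.

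The comparison of 16IC with EIC asks how lines with the shorter receptor form differ from lines with the full-length one, and it contains EIC_NT among its EIC lines, so it is not independent of the values above. Members tended to be higher in 16IC. The median difference of the group means of log2 CPM was 0.27 over the members, against -0.06 over all genes with at least 300 counts, and 291 of 414 members (70.3%) were higher in 16IC, against 46.0% of all. Without EIC_NT the medians were 0.13 and -0.04. The difference was not evenly spread over the 16IC lines: 16IC_1984 lay above both EIC_4026 and EIC_7559 in 56.0% of members, 16IC_4982 in 53.6% and 16IC_7391 in 42.0%. Over all genes these shares were 40.5, 39.8 and 40.7%, so 16IC_7391 stood near the background and the other 2 lines above it.

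By window, 16IC minus EIC was largest in windows 8 and 9, between 70 and 90 Mb, at 0.51 and 0.40, where 42 of 50 and 61 of 71 members were higher in 16IC. Without EIC_NT these values were 0.38 and 0.33. Windows 1, 3 and 12 stood at 0.39, 0.29 and 0.31, and at 0.21, 0.12 and 0.24 without EIC_NT. In windows 2, 6, 7 and 10 the sign turned when EIC_NT was left out, from 0.10, 0.03, 0.18 and 0.16 to -0.07, -0.14, -0.10 and -0.15. Windows 4 and 11 went from 0.16 and 0.13 to 0.00 and 0.07. Window 5, with 10 members, was the one window lower in 16IC with all 6 lines, at -0.33, and stood at -0.63 without EIC_NT.

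**Figure D4:**
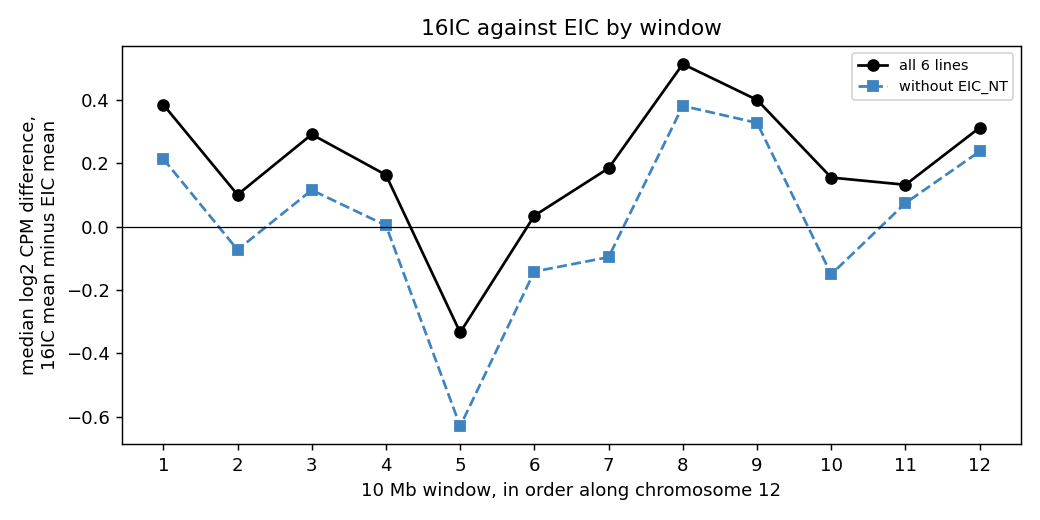
Median over members of the 16IC mean minus the EIC mean of log2 CPM (vertical axis) in the 12 windows of 10 Mb (horizontal axis), with all 6 lines (black circles) and without EIC_NT (blue squares). Windows 8 and 9 are the highest in both, and leaving out EIC_NT lowers the value in each window.

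Gene by gene, 8 of 413 members that passed the filter on low counts were called by edgeR (quasi-likelihood, p-values adjusted by Benjamini-Hochberg over all 13698 genes tested), all 8 higher in 16IC. This share, 1.94%, was near the background of 2.45% over all genes tested, in which 1.25% were called higher and 1.2% lower. Nova1, a neuronal splicing gene read in 2 EIC lines, was the 1 member that did not pass the filter. Groups that did not overlap, with every 16IC line higher, were found for 115 members (27.8%, against 17.2% of genes tested). In 90 of these EIC_NT was the lowest line. Only an EIC line can be the lowest in such genes, and the same share over all genes was not counted. With every 16IC line lower there were 24 members (5.81%, against 14.2%). The authors' deposited table gives an adjusted p under 0.05 to 58 members, 43 of them higher and 15 lower in 16IC. Of all 11587 genes with at least 300 counts it does so for 13.2%, 771 higher and 757 lower.

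Of the 8 called members 5 lay in window 9, which holds 71 of the 414 members, more than any other window. Ltbp2 (84783212 to 84876532), a relative of the latent TGF-beta binding proteins, had 4.10, 2.28 and 2.42 CPM in EIC_4026, EIC_NT and EIC_7559 and 516, 219 and 137 CPM in 16IC_1984, 16IC_4982 and 16IC_7391. Its means were 2.93 ± 1.01 CPM in EIC and 291 ± 199.7 CPM in 16IC (SD, n = 3), and it rose in 16IC (adjusted p = 0.0257 by edgeR, log2 fold change 6.63 with SE 0.67). Pgf (85166635 to 85177790), the placental growth factor, had 1.14, 0.360 and 2.36 CPM in EIC_4026, EIC_NT and EIC_7559 and 27.2, 43.1 and 20.6 CPM in 16IC_1984, 16IC_4982 and 16IC_7391. It rose from 1.28 ± 1.01 to 30.3 ± 11.6 CPM (adjusted p = 0.0430 by edgeR, log2 fold change 4.55 with SE 0.73). In both genes every 16IC line lay far above every EIC line.

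Papln, Numb and Ttll5 completed the calls of window 9. Papln (83763634 to 83792382), which encodes the matrix protein papilin, had 11.8, 4.98 and 15.2 CPM in EIC_4026, EIC_NT and EIC_7559 and 58.4, 73.6 and 105 CPM in 16IC_1984, 16IC_4982 and 16IC_7391, and it rose (adjusted p = 0.0432 by edgeR, log2 fold change 2.89 with SE 0.47). Its neighbour Numb (83794034 to 83921934), an inhibitor of Notch signalling, had 30.1, 30.1 and 30.3 CPM in EIC_4026, EIC_NT and EIC_7559 and 60.5, 60.3 and 63.3 CPM in 16IC_1984, 16IC_4982 and 16IC_7391. Numb rose by a small and even amount (adjusted p = 0.0390 by edgeR, log2 fold change 1.02 with SE 0.15), and EIC_NT stood at the level of the other EIC lines. Ttll5 (85824659 to 86061893), a tubulin-modifying enzyme gene, had 18.5, 13.9 and 20.9 CPM in EIC_4026, EIC_NT and EIC_7559 and 62.7, 62.9 and 48.5 CPM in 16IC_1984, 16IC_4982 and 16IC_7391 and also rose (adjusted p = 0.0370 by edgeR, log2 fold change 1.71 with SE 0.23).

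The remaining 3 calls lay elsewhere on the chromosome. Itgb8 (119158022 to 119238802), the integrin beta-8 subunit, which activates latent TGF-beta, had 5.01, 1.56 and 5.09 CPM in EIC_4026, EIC_NT and EIC_7559 and 48.3, 49.0 and 46.9 CPM in 16IC_1984, 16IC_4982 and 16IC_7391. It rose with little spread among the 16IC lines (adjusted p = 0.0369 by edgeR, log2 fold change 3.63 with SE 0.48). Plekhh1 (79029163 to 79081655), a gene for a protein with pleckstrin homology domains, had 2.22, 0.780 and 2.98 CPM in EIC_4026, EIC_NT and EIC_7559 and 45.9, 45.5 and 30.3 CPM in 16IC_1984, 16IC_4982 and 16IC_7391 and rose (adjusted p = 0.0360 by edgeR, log2 fold change 4.34 with SE 0.54). Grhl1 (24572283 to 24617391), an epithelial transcription factor gene, had 0.740, 0.960 and 0.744 CPM in EIC_4026, EIC_NT and EIC_7559 and 20.9, 18.3 and 14.1 CPM in 16IC_1984, 16IC_4982 and 16IC_7391 and rose (adjusted p = 0.0181 by edgeR, log2 fold change 4.43 with SE 0.33). Without EIC_4026, EIC_7559 or 16IC_4982 edgeR called 0 of the 8 (adjusted p = 0.102 to 0.164, 0.151 to 0.158 and 0.110 to 0.171), and 0 of all genes tested. Members at an unadjusted p under 0.05 numbered 89, 80 and 72 in these fits, against 101 with all lines. The 101 were 24.5% of the members tested, near the 22.7% of all genes tested. For the fits without a line that share over all genes was not counted. Without 16IC_1984 edgeR called Ltbp2 alone (adjusted p = 0.0466), and without EIC_NT all but Numb (0.0567). Without 16IC_7391 it called all 8 among 55 members, when 13.4% of all genes tested were called. Of the lists above, the calls held 2 of 10 matrix and adhesion genes (Ltbp2 and Itgb8), 1 of 24 transcription regulators (Grhl1) and 1 of 20 growth and hypoxia signalling genes (Pgf), and none in the other lists.

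**Figure D5:**
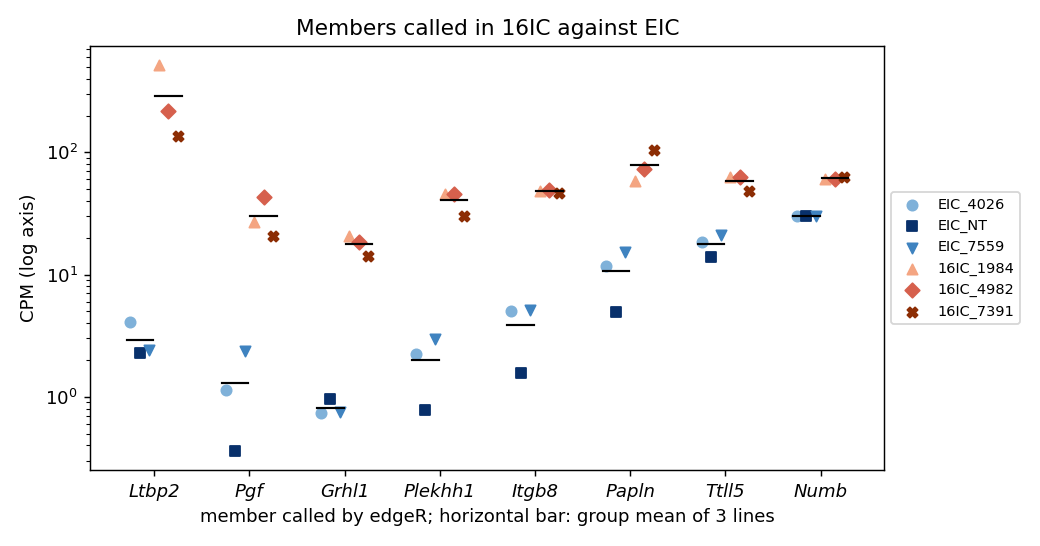
CPM on a log axis in each of the 6 lines for the 8 members called by edgeR, with a horizontal bar at each group's mean (n = 3). The 16IC lines lie above the EIC lines in each gene, and EIC_NT is the lowest line in all but Grhl1 and Numb.

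With all 6 lines, edgeR called 0 members lower in 16IC, against 1.2% of all genes tested. At an unadjusted p under 0.05, 18 members were lower, and the share over all genes in that direction was not counted. limma-voom called 1 member lower and DESeq2 15, where 2.10 and 12.4% of all genes were called in either direction. Without EIC_NT and without 16IC_7391 edgeR called 2 and 16 members lower, where 1.96 and 13.4% of all genes were called in either direction. With all lines, the smallest p among members lower in 16IC belonged to the deiodinase gene Dio2, the mesenchymal regulator gene Twist1 and the endocytosis gene Rin3. Their edgeR adjusted p was 0.0501, 0.0540 and 0.0701. Dio2 had 38.0, 24.8 and 165 CPM in EIC_4026, EIC_NT and EIC_7559 and 3.61, 2.01 and 3.17 CPM in 16IC_1984, 16IC_4982 and 16IC_7391. Cmpk2, Pdia6, Ckb, Arl4a and Tnfaip2 followed, with adjusted p from 0.0871 to 0.109 in edgeR. Pdia6, a protein disulfide isomerase gene of the endoplasmic reticulum, had 620.1, 448 and 582.2 CPM in EIC_4026, EIC_NT and EIC_7559 and 307, 266 and 345 CPM in 16IC_1984, 16IC_4982 and 16IC_7391. Ckb, which encodes brain-type creatine kinase, had 117, 29.3 and 182 CPM in EIC_4026, EIC_NT and EIC_7559 and 7.27, 18.6 and 2.65 CPM in 16IC_1984, 16IC_4982 and 16IC_7391. In these 8 genes every 16IC line was below every EIC line.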

How the data were processed

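RNA of 6 cell lines, 3 EIC and 3 16IC, was sequenced from NEBNext Ultra II libraries, per the labels' protocols. The submitters' processing notes name HTSeq, STAR, Trimmomatic, limma and edgeR, with GRCm38 and mm10 as builds; their roles and versions, and the strandedness and annotation, are not given in the material used here. The authors' deposited table holds a whole-number read count per gene and line, the authors' FPKM, and the authors' log2 fold change with an adjusted p-value. The column Dnt was matched to EIC_NT by its name. All 414 members had the same start, end and strand in GENCODE M21.

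Counts of 23449 genes were filtered with filterByExpr (minimum count 10), scaled by TMM and fitted with edgeR 4.0.16 in R 4.3.3 (adjusted p under 0.05). Alternatives used limma 3.58.1, DESeq2 1.42.0, other scaling factors, no filter, other member limits and leaving out each line. Differences by line use log2 CPM with a prior count of 1, which understates differences of low genes. Fits and medians were tested on simulated data.

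Members, windows and gene lists were chosen with earlier results of these data known, and no list or window was given a test. Genes were named by 4 rules: the 3 most counted of each window; the called members whose groups do not overlap and whose higher mean is at least 5 CPM, filled by smallest p to 8 per direction; the 12 highest and 12 lowest in EIC_NT among members outside the range of the other lines and with at least 5 CPM in the higher of the 2 values; and up to 5 by count from each list. Predicted genes were left out of the second and the third. Exceptions are stated, some genes that the rules name are not reported here, and the printed promoters were picked after values were seen. The floor of 3 counts covers counting error only.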

Additional observations from a re-analysis of the deposited data

How the results depend on the processing

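The EIC_NT median over all members ran from -0.70 (mean in place of median) to -0.49 (against EIC_4026 and EIC_7559 alone), with -0.57 under DESeq2 size factors, -0.62 under upper-quartile factors and -0.59 and -0.54 at member limits of 100 and 1000 counts, and every window stayed negative under each of these. By the mean, windows 3, 4, 8, 10 and 11 stood at -1.0, -0.78, -0.87, -0.49 and -0.84. Against the other EIC lines alone, windows 1, 3, 4 and 9 stood at -0.57, -0.54, -0.74 and -0.34, and against the 16IC lines window 6 stood at -0.52. Leaving out 1 comparison line gave -0.85 to -0.70 in window 1, -0.77 to -0.57 in window 4, -0.67 to -0.54 in window 6 and -0.49 to -0.28 in window 10. Members below all other lines numbered 181 at a fold of 1.5 and 228 with no fold, and those above 13 and 18. With no fold the shares over all genes with at least 300 counts were 19.1% below and 23.2% above. At a fold of 1.5 the share over all genes was not counted, so 181 and 13 have no background beside them. For 16IC minus EIC, the mean gave -0.30, 0.65, 0.85, 0.66 and -0.40 in windows 2, 3, 8, 9 and 10. It gave -0.04 in both windows 4 and 6, so the sign turned in windows 2, 4, 6 and 10. Leaving out a line gave -0.10 to 0.39 in window 7 and -0.15 to 0.40 in window 10. DESeq2 called 58 members, limma-voom 10 and edgeR without 1 line 0 to 55. Over all genes tested the shares called were 12.4% by DESeq2, 2.10% by limma-voom and 0 to 13.4% by edgeR without 1 line. The cause of these differences was not tested. No paired analysis was possible because the line numbers in the names are not shared between the groups. Depth limits low members most: an EIC_NT library with no count of a gene allows up to 0.180 CPM.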
